A study of Mus musculus with 3 samples.

Results

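Cluster 1 is the set of cells to which the deposited cluster table gives the number 1 in a single-cell RNA-sequencing map of mouse cardiac endothelium. It held 799 of 9562 cells (8.36%, 95% exact binomial interval 7.81 to 8.93). The clusters were numbered by the study from the highest *Cdh5* to the highest *Runx1* level, so clusters 0 and 2, which are the other *Cdh5*-rich clusters, were used for comparison (728 and 5396 cells). The starting cells were sorted from hearts of 12 to 16-week-old female mice carrying a GFP transgene, as GFP+ cells positive for CD31 and VE-Cad and negative for CD41, CD45, PDGFRA and PDGFRB. They were either taken fresh (0 h) or co-aggregated for 24, 48, 72 or 96 h with *Mesp1*der stromal cells (PDGFRA+ cells of the aorta–gonad–mesonephros region of E11.5 embryos that carry a DsRed label through a *Mesp1*-Cre), in medium with fetal calf serum, IL-3, SCF and Flt3L, and sorted again as GFP+CD31+VE-Cad+PDGFRA- cells. All times were pooled in each of 3 pools (A, B and C), so no cell can be given a time. The 3 barcode suffixes in the table name 3 libraries, but nothing ties a suffix to a pool, so the matrix was treated as 1 sample and no test between groups was made. All intervals cover counting error only, and all comparisons between clusters are descriptions, since the clusters were built from the same counts.

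Capillary endothelium of the heart takes up fatty acids from the blood for the muscle beside it. GPIHBP1 carries lipoprotein lipase to the luminal face of the capillary, CD36 takes up the released fatty acids and FABP4 binds them inside the cell. Endothelium exposed to cytokines or microbial products is known to switch on NF-κB and STAT3 targets, among them chemokines that recruit leukocytes (CXCL1, CXCL2, CCL2), the granulocyte growth factor G-CSF (*Csf3*), acute-phase proteins (SAA3, LCN2) and the adhesion molecules E-selectin, P-selectin, ICAM1 and VCAM1. Macrophages make many of the same products and are a main source of IL-1.

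The cells of cluster 1 were shallow. Their median was 7875 UMIs (unique molecular identifiers, which count captured mRNA molecules) and 2989 genes per cell, against 14061 UMIs in cluster 0 and 22493 in cluster 2. The 3 libraries gave medians of 7742, 7429 and 8296 UMIs in cluster 1, and its cells summed to 8412051 UMIs. Although the stated filter kept cells of at least 5000 UMIs, 54 cells of cluster 1 lay below that number, 45 of them in the library with suffix 1 and none in that with suffix 2. The median share of mitochondrially encoded RNA was 1.84%, lower than in cluster 0 (3.87%) and cluster 2 (3.07%). A few cells held far more of it. In the summed counts, 13 mitochondrially encoded genes were at 258 UMIs per 10,000, against 398 in cluster 0 and 317 in cluster 2. Of these UMIs in cluster 1, 33.4% lay in 40 cells, and the highest cell held 9816 per 10,000. The median share of ribosomal protein genes was 12.7% against 15.7% and 19%. The nuclear RNA *Malat1* was at 174 UMIs per 10,000 against 89.8 in cluster 0 and 38.5 in cluster 2, and *Neat1*, also nuclear, was at 3.12 against 0.164 and 0.0738. Depth and the nuclear RNAs thus moved with every comparison given here. With each cell thinned to 5000 UMIs, 1480 genes were past 2-fold higher and 758 lower than in cluster 2, against 1544 and 731 without thinning, and 1348 and 664 of them were called in both. The part of the nuclear RNAs was not tested. Of the 9562 barcodes, 13 sequences were found in more than 1 library, 3 of them in cells of cluster 1.

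Cluster 1 was not equally common in the libraries. It made up 384 of 3507 cells in the library with suffix 1 (10.9%, interval 9.93 to 12), 179 of 3958 cells in that with suffix 2 (4.52%, 3.90 to 5.22) and 236 of 2097 cells in that with suffix 3 (11.3%, 9.93 to 12.7). Among cells of at least 5000 UMIs the shares were 9.87%, 4.52% and 10.9%. The library with suffix 2 therefore stood below the other 2 whether or not shallow cells were counted. Before the results, 1 further mark against the labels has to be given. The hearts came from female mice by the stated methods, yet 60.8% of the cells of cluster 1 (57.3 to 64.2) held a UMI of at least 1 of the 4 Y-linked genes *Ddx3y*, *Eif2s3y*, *Uty* and *Kdm5d*, against 53.6% in cluster 0 and 53.1% in cluster 2. A UMI of *Xist*, the RNA of the inactive X chromosome, was found in 27.3% of these cells (46.3% for cluster 0, 45.8% for cluster 2). Both were found in 5.38% of the cells of cluster 1. These shares were taken without thinning, so the clusters stand at unequal depth. A UMI of a gene at low level is missed more often in the shallower cells of cluster 1, which lowers the *Xist* and the Y-linked share alike. In the summed counts, scaled to the total, the log2 ratio of *Xist* was -0.797 to cluster 0 and -0.433 to cluster 2, which is not past 2-fold. The Y-linked share was 65.1%, 67.6% and 48.7% in the libraries with suffix 1, 2 and 3, and the *Xist* share 18.5%, 30.2% and 39.4%. The origin of the Y-linked UMIs was not tested.

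**Figure D1:**
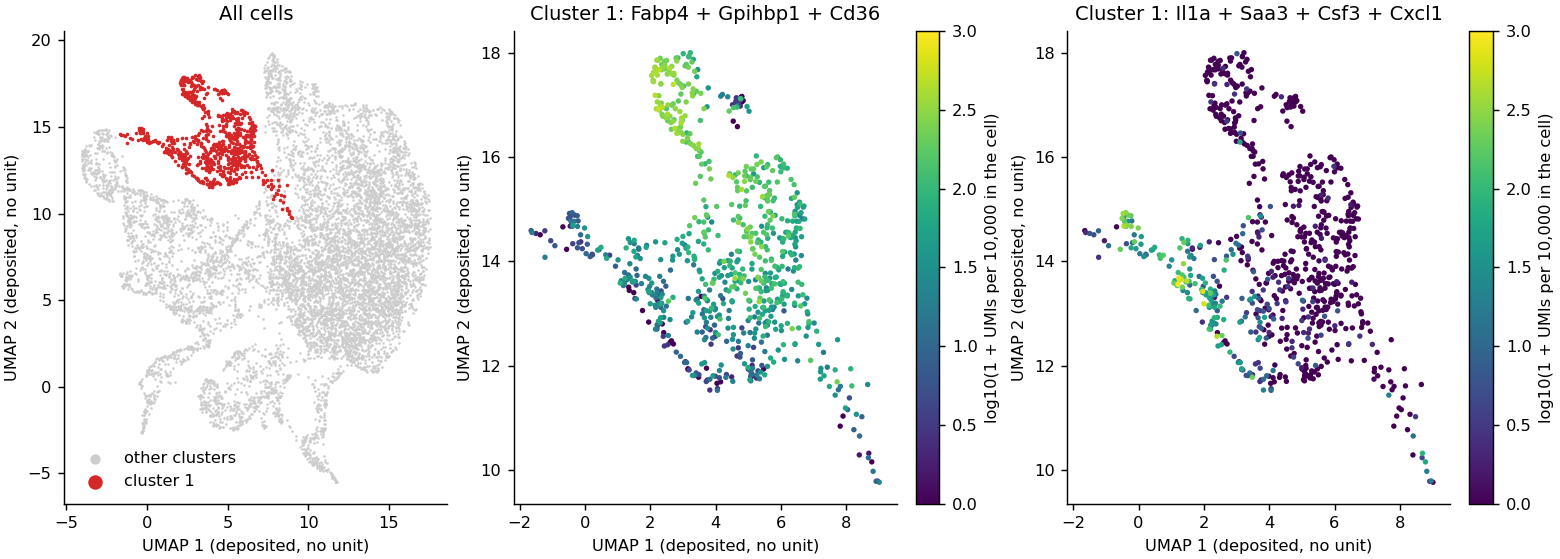
Deposited UMAP coordinates (no unit) of all cells (left, cluster 1 in red) and of the 799 cells of cluster 1, coloured by the summed level of *Fabp4*, *Gpihbp1* and *Cd36* (middle) and of *Il1a*, *Saa3*, *Csf3* and *Cxcl1* (right), both as log10(1 + UMIs per 10,000 in the cell). The capillary genes colour most of the cluster and the inflammatory genes only a band at its left edge.

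The label given to the cluster, inflamed capillary endothelium, was checked against 7 genes. Values are levels in UMIs per 10,000, from the summed counts of a cluster, and a gene was called when its ratio passed 2-fold in the sum and in each of the 3 libraries, among genes with at least 0.1 UMI per 10,000 in either cluster. The 3 capillary genes were high and widespread. *Fabp4* (mm10 chromosome 3, 10204088 to 10208576, minus strand) was at 60.8, 55.2 and 78.0 in the libraries with suffix 1, 2 and 3, against 1.44, 1.63 and 0.952 in cluster 2 and 1.39, 0.963 and 0.496 in cluster 0. *Gpihbp1* (chromosome 15, 75596628 to 75599481, plus strand) was at 9.39, 10.7 and 10.8, against 0.231 to 0.284 in cluster 2 and 0.159 to 0.304 in cluster 0. *Cd36* (chromosome 5, 17781690 to 17888801, minus strand) was at 3.06, 4.29 and 5.30, against 0.112 to 0.223 and 0.0904 to 0.131. The libraries of cluster 1 did not overlap those of the other clusters for any of the 3 genes. As markers chosen with these data known, these genes are no independent check of the label. The ratio to cluster 2 was 49.1-fold for *Fabp4* (log2 5.62, 95% interval 5.59 to 5.64), 38.5-fold for *Gpihbp1* (5.27, 5.21 to 5.32) and 25.6-fold for *Cd36* (4.68, 4.6 to 4.76), and the ratio to cluster 0 was 68.3-, 44.6- and 35.6-fold.

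The 4 inflammatory genes were also higher, with more spread between libraries. *Il1a* (interleukin-1α; chromosome 2, 129299610 to 129309972, minus strand) was at 3.14, 0.808 and 1.98, against 0.00207 to 0.00295 in cluster 2, and in cluster 0 only 2 UMIs were counted. *Saa3* (chromosome 7, 46711998 to 46715700, minus strand) was at 16.4, 6.32 and 2.65, against 0.0145 to 0.0541 in cluster 2 and 0.00232 to 0.00901 in cluster 0. Cluster 1 was higher in each library for both genes, but the libraries of cluster 1 differed among themselves by more than the capillary genes did. *Csf3* (chromosome 11, 98701263 to 98703629, plus strand) was at 3.62, 1.93 and 5.22, against 0.00323 to 0.0322 in cluster 2 and 0 to 0.277 in cluster 0. *Cxcl1* (chromosome 5, 90891241 to 90893115, plus strand) was at 8.19, 5.28 and 15.5, against 0.0239 to 0.0459 in cluster 2 and 0.00232 to 0.449 in cluster 0. For *Csf3* and *Cxcl1* the library with suffix 2 was the lowest in cluster 1 and the highest in cluster 0. The ratio to cluster 2 was 857-fold for *Il1a* (log2 9.74, 9.28 to 10.2), 315-fold for *Saa3* (8.30, 8.16 to 8.44), 229-fold for *Csf3* (7.84, 7.65 to 8.04) and 280-fold for *Cxcl1* (8.13, 8.0 to 8.26). Against cluster 0 the log2 ratio was 10.5 for *Il1a* (8.62 to 13.5), 10.8 for *Saa3* (9.74 to 12.1), 5.44 for *Csf3* (5.16 to 5.73) and 6.09 for *Cxcl1* (5.88 to 6.31). Leaving out the library with suffix 1 lowered the level of *Saa3* from 9.80 to 4.16 and that of *Il1a* from 2.26 to 1.5. Leaving out the library with suffix 2 lowered *Cxcl1* in cluster 0 from 0.145 to 0.0114 and *Csf3* there from 0.0866 to 0.00343.

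Across all genes, 1544 of 9191 (16.8%) were past 2-fold higher in cluster 1 than in cluster 2 and 731 (7.95%) past 2-fold lower, with a median log2 ratio of 0.10. Against cluster 0, 1077 of 9347 genes (11.5%) were higher and 707 (7.56%) lower, with a median of -0.01. All 7 markers were past 2-fold higher in both comparisons, but they were chosen with these data known. They are also members of other lists: *Fabp4*, *Gpihbp1* and *Cd36* of the capillary list and *Il1a* and *Csf3* of the cytokine list. *Cxcl1* is in the chemokine list and *Saa3* in the acute-phase list. Counts in these lists are thus no independent check of the label. Counts in gene lists are read against these shares, and the 2 comparisons share the cells of cluster 1. A gene under the minimum in the other cluster was compared only through its level in cluster 1. Such a gene could be called higher but never lower. For lists made mostly of such genes these shares are no fair yardstick.

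**Figure D2:**
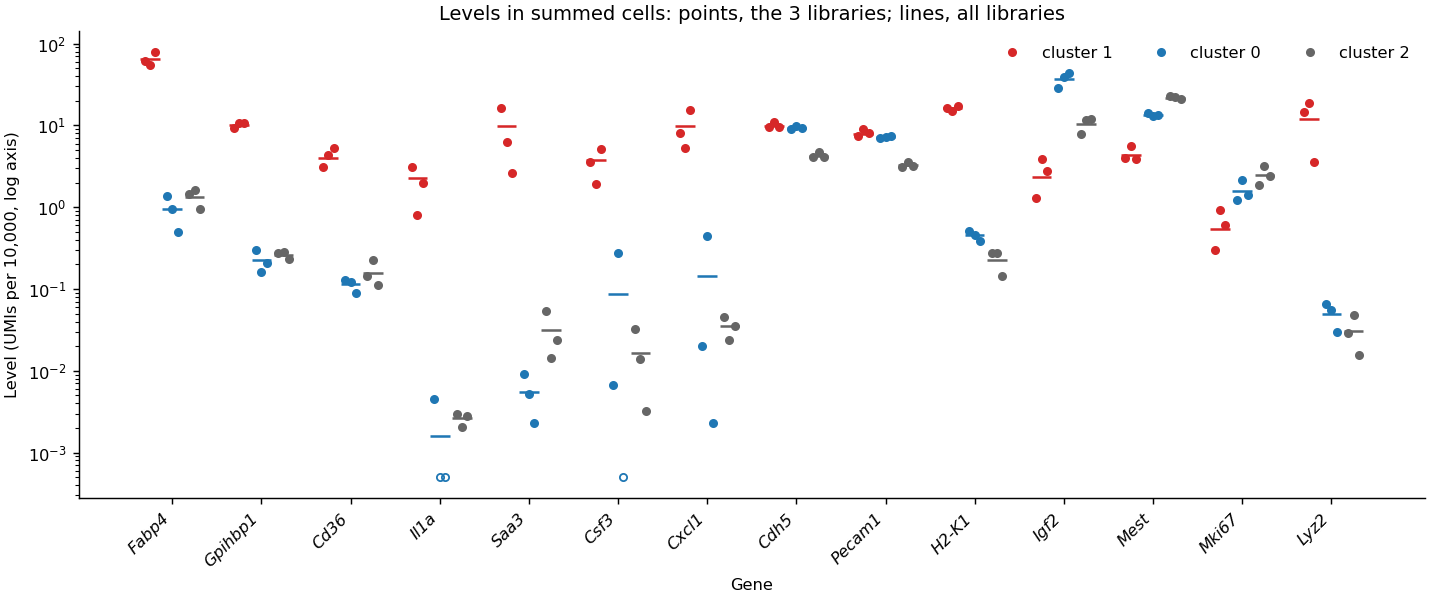
Levels (UMIs per 10,000, log axis) of the 7 marker genes and 7 further genes in the summed cells of clusters 1, 0 and 2. Points are the 3 libraries in the order of their suffix, lines are the sum over libraries, and open points at the bottom of the axis are libraries with 0 UMIs. The points of cluster 1 lie above those of both other clusters for the 7 markers and below them for *Igf2*, *Mest* and *Mki67*.

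The starts of 4 of the 7 genes were in the RefSeq promoter table (GRCm38.p6, 250 bases before to 50 bases after the start) and are shown because these genes were past 2-fold in both comparisons. They were searched on both strands for the NF-κB consensus, the AP-1 motif TGACTCA and TATAAA, and matches are in capitals. The windows are *Cd36* at chr5:17835847-17836146 on the minus strand, *Il1a* at chr2:129309923-129310222 on the minus strand, *Saa3* at chr7:46715627-46715926 on the minus strand and *Cxcl1* at chr5:90890995-90891294 on the plus strand, each printed 5′ to 3′ on the strand of its gene.

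*Cd36*: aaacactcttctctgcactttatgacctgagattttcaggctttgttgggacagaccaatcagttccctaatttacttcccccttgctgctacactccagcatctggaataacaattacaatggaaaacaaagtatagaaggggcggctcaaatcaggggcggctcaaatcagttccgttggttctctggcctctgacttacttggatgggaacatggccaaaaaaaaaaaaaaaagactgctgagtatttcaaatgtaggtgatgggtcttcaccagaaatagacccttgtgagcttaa

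*Il1a*: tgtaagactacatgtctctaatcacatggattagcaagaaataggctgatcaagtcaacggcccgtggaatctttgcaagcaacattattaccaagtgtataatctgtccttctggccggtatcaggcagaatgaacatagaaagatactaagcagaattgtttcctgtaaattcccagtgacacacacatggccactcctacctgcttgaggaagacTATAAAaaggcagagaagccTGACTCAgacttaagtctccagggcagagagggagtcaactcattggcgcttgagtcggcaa

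*Saa3*: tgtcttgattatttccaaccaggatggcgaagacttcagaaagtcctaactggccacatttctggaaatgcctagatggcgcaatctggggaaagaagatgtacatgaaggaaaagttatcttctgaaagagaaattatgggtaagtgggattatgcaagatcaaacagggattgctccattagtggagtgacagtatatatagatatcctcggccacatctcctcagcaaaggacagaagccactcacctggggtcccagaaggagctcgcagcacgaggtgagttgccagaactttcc

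*Cxcl1*: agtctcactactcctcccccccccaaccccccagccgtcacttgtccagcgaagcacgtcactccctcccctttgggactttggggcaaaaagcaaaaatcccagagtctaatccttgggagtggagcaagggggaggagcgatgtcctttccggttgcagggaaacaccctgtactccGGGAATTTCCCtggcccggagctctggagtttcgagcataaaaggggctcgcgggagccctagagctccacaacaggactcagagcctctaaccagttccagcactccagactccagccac

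*Cxcl1* held a match to the NF-κB consensus on each strand, overlapping, from -71 to -62 and from -70 to -61 of the start. *Il1a* held a TATAAA from -32 to -27 and a TGACTCA from -12 to -6. No match lay in the windows of *Saa3* and *Cd36*. The *Cd36* window is at a start inside the bounds of the gene given above (17781690 to 17888801), and the outermost 5′ end was not searched. Of all 27025 promoters of that length, 4.35% held the NF-κB consensus, 5.17% TGACTCA and 14.2% TATAAA.

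The capillary and the inflammatory genes differed in how many cells of cluster 1 held them. Each of the 745 cells of cluster 1 with at least 5000 UMIs was thinned to 5000. A UMI of *Fabp4* was then found in 92.5% of these cells, of *Gpihbp1* in 62.0% and of *Cd36* in 49.9%. In cluster 0 the shares were 14.4%, 10.5% and 4.71%, and in cluster 2 19.9%, 10.8% and 6.92%. *Cxcl1* was found in 18.5% of the cells, *Csf3* in 16.5%, *Saa3* in 11.8% and *Il1a* in 6.58%. In clusters 0 and 2 these 4 genes were found in 0 to 1.25% of cells, and in clusters 3 to 6 in 0 to 2.73%. Whether shares at that level are background UMIs or expression was not tested. Without thinning, counting cells above 0.5 UMI per 10,000, the shares in cluster 1 were 94.0%, 66.2% and 58.3% for *Fabp4*, *Gpihbp1* and *Cd36*, and 20.9%, 19%, 13% and 7.38% for *Cxcl1*, *Csf3*, *Saa3* and *Il1a*. The share with *Csf3* was 22.1% in the library with suffix 1 against 11.7% and 11.9% in the others, and the shares of the other 3 inflammatory genes ranged over the libraries from 4.0% to 8.0% for *Il1a*, 11% to 12.7% for *Saa3* and 14.5% to 21.2% for *Cxcl1*.

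Most of the inflammatory UMIs came from a few cells. The 40 cells with the most UMIs of a gene (5% of the cluster) held 98.0% of all *Il1a* UMIs, 98.1% of those of *Saa3*, 88.6% of *Cxcl1* and 76.8% of *Csf3*. For the capillary genes the same share was 23.0% (*Fabp4*), 26.3% (*Gpihbp1*) and 31.4% (*Cd36*), close to that of the junction gene *Cdh5* (18.9%) and of the class I antigen-presenting gene *H2-K1* (19.1%). At 5000 UMIs per cell, 522 cells (70.1%) held no UMI of any of the 4 inflammatory genes, 105 held 1 of them, 77 held 2, 25 held 3 and 16 held all 4. The median number of UMIs of 21 pan-endothelial genes was 62 in the cells with none of the 4 and 21.5 in those with all 4, and the median capillary sum was 41.5 and 7.5.

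**Figure D3:**
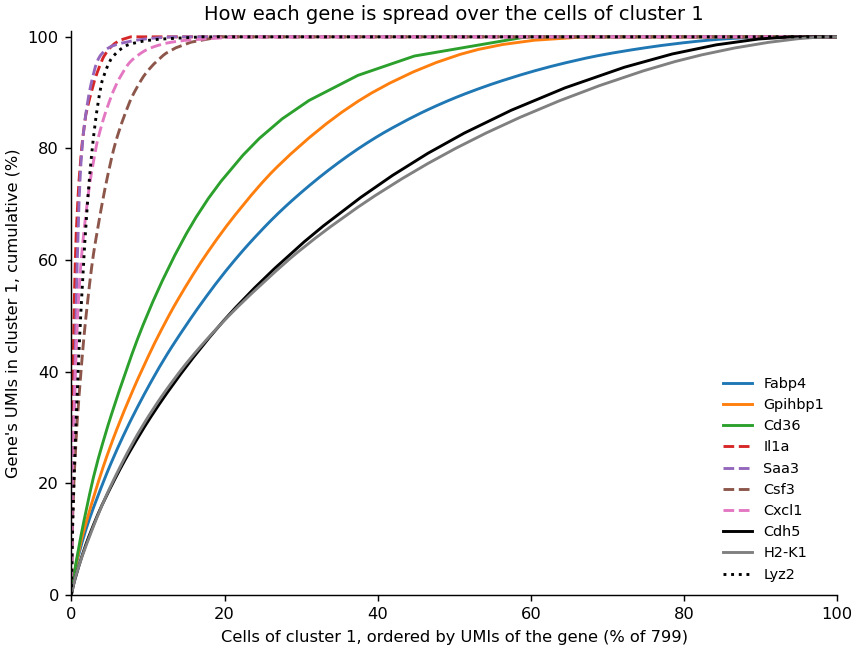
Cumulative share of a gene's UMIs in cluster 1 (vertical axis, %) against the share of its 799 cells (horizontal axis, %), with cells ordered for each gene from the most UMIs to the fewest. The curves of *Il1a*, *Saa3*, *Cxcl1*, *Csf3* and *Lyz2* reach the top within the first cells, while those of *Fabp4*, *Gpihbp1*, *Cd36*, *Cdh5* and *H2-K1* rise slowly.

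The 4 inflammatory genes overlapped in part in the cells that held them. *Il1a* and *Saa3* were found together in 42 cells, 85.7% of the 49 cells with *Il1a* and 47.7% of the 88 cells with *Saa3*. *Csf3* and *Cxcl1* were found together in 80 cells, 65.0% of the 123 cells with *Csf3* and 58.0% of the 138 cells with *Cxcl1*. *Csf3* was also found in 27 of the cells with *Il1a* (55.1%) and in 45 of those with *Saa3* (51.1%). *Lyz2*, the lysozyme of macrophages and granulocytes, was found in 45 of the 49 cells with *Il1a* (91.8%, interval 80.4 to 97.7) and in 71.6% of those with *Saa3*, but in 34.1% of those with *Csf3* and 29.0% of those with *Cxcl1*, against 14.6% of the whole of cluster 1 (2.49% in cluster 0, 1.62% in cluster 2). *Cdh5* was found in 61.2% of the cells with *Il1a* (46.2 to 74.8), 79.5% of those with *Saa3*, 80.5% of those with *Csf3* and 84.8% of those with *Cxcl1* (77.7 to 90.3), against 91.4% of all cells of the cluster and 98.9% of those with *Gpihbp1*. *Cdh5* was also found in 13.9% (cluster 4) to 32.2% (cluster 3) of the cells in clusters 3 to 6, which are the clusters poorest in it.

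Leukocyte genes therefore had to be set beside these values, although the cells were sorted as CD45- before culture and as CD31+VE-Cad+ after it. All 9 macrophage genes that could be compared with cluster 2, of 10 listed, were past 2-fold higher, as were 7 of 10 pan-leukocyte genes. The summed level of the macrophage list was 18.1 UMIs per 10,000, compared with 0.149 for cluster 2 and 0.188 for cluster 0. Most macrophage genes were thus compared with cluster 2 only through their level in cluster 1 and could not be called lower. *Ptprc*, which encodes CD45, was at 0.200 against 0.00591 and 0.0135. By a limit set after the values were seen, 80 cells of cluster 1 (10.0%) held at least 20 UMIs per 10,000 of the macrophage and pan-leukocyte lists, which contain none of the 7 markers, and 40 cells lay within 5 of that limit. Without these 80 cells the level of *Il1a* was 0.0347 in place of 2.26 and that of *Saa3* 0.193 in place of 9.80, while *Csf3* was at 3.16 in place of 3.75 and *Cxcl1* at 9.82 in place of 9.87. *Il1a* was then under the minimum for a comparison and 6 of 6 remaining markers were still past 2-fold against clusters 2 and 0. *Fabp4*, *Gpihbp1* and *Cd36* were at 72.6, 11.7 and 4.23 without these cells. A second limit, also set after the values were seen, marked the 57 cells (7.13%) with under 20 UMIs per 10,000 of the pan-endothelial genes, of which 29 were among the 80, and 15 cells lay within 5 of it. These 57 cells held 78.3% of the *Il1a* UMIs, 66.9% of those of *Saa3*, 15.0% of *Csf3* and 12.9% of *Cxcl1*. The 7 genes are those the label rests on, so they are no independent check of it. Since most UMIs of *Il1a* and *Saa3* lay in the 80 cells with leukocyte genes, the cells are called cluster 1 here.

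Within cluster 1 the capillary and the inflammatory genes ran against each other. Over the 745 thinned cells, which share 3 libraries and a fixed total, the Spearman correlation between the summed UMIs of *Fabp4*, *Gpihbp1* and *Cd36* and those of *Il1a*, *Saa3*, *Csf3* and *Cxcl1* was -0.44 (-0.47, -0.55 and -0.32 in the libraries with suffix 1, 2 and 3). The capillary sum went with the pan-endothelial sum (0.63) and the inflammatory sum against it (-0.55). Both kinds of gene were nevertheless found in the same cell in 205 cells (27.5%), and 18 cells had inflammatory genes without any capillary UMI. A UMI of *Fabp4* alone was enough for this count, and *Fabp4* was also found in 83.5% of the cells with *Lyz2*. It was found in 38 of the 49 cells with *Il1a*, 81 of 88 with *Saa3*, 111 of 123 with *Csf3* and 126 of 138 with *Cxcl1*. For *Gpihbp1* the same numbers were only 10, 23, 16 and 35 cells, against 462 of all 745 cells. How many cells are both capillary and inflamed was therefore not settled by this count.

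**Figure D4:**
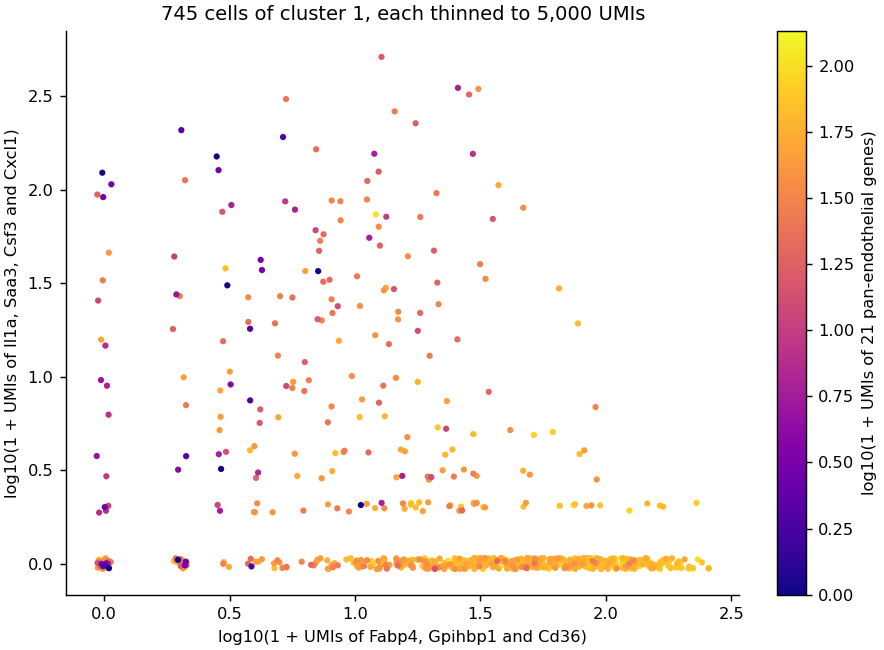
Each point is 1 of the 745 cells of cluster 1 thinned to 5000 UMIs, with log10(1 + UMIs) of the 3 capillary genes on the horizontal axis and of the 4 inflammatory genes on the vertical axis, coloured by log10(1 + UMIs) of 21 pan-endothelial genes. Points are shifted by up to 0.03 so that equal values can be seen. The 522 cells without an inflammatory UMI lie on the bottom row and reach the highest capillary counts.

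The cells were ordered by the capillary sum and divided into 4 bins of 186 or 187 cells. From the lowest bin (0 to 9 capillary UMIs) to the highest (67 to 274), the pan-endothelial list rose in level, with 56.6, 97.8, 123 and 138 UMIs per 10,000. The cytokine list was at 23.8, 10.6, 4.52 and 1.20 and the chemokine list at 111, 78.9, 29.7 and 9.49. *Ccl2* was at 24.7, 13.3, 1.73 and 0.269 and *Cxcl1* at 14.1, 20.0, 7.84 and 0.129, so *Cxcl1* was highest in the second bin. The NF-κB list was at 53.9, 43.0, 25.8 and 18.5, and the macrophage list at 35.9, 6.88, 2.63 and 0.753. The class I genes did not follow this order, with 66.5, 66.5, 58.1 and 69.9 for the antigen presentation list. At 5000 UMIs per cell, *Xist* was found in 20.3%, 9.68%, 15.6% and 47.8% of the cells of the bins and a Y-linked UMI in 46.0%, 52.7%, 55.4% and 28.5%. In each library the highest bin had the highest *Xist* share of the 4 bins (34.8%, 38.5% and 64.1%). Its Y-linked share was 34.8%, 41.0% and 16.7% in the libraries with suffix 1, 2 and 3, against 50.0%, 41.5% and 43.5% in the lowest bin. The intervals of these 2 bins overlapped with suffix 1 (23.7 to 47.2 and 39.1 to 60.9) and with suffix 2. They lay apart only with suffix 3 (9.18 to 26.8 and 28.9 to 58.9). The erythroid list was at 40.3 in the highest bin and at most 0.129 in the others, and 2 cells of the cluster held more than 100 UMIs per 10,000 of it.

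Cluster 1 held most pan-endothelial genes at levels near those of cluster 0. None of 21 pan-endothelial genes was past 2-fold lower than in cluster 2 and 6 were higher (median log2 0.76). Against cluster 0 none was higher and 1 lower (median 0.09). *Cdh5* was at 9.56, 11.1 and 9.68 in the 3 libraries, against 4.08 to 4.73 in cluster 2 and 8.98 to 9.80 in cluster 0. *Pecam1*, which encodes CD31, was at 7.96 against 3.30 and 7.27. The gene that was lower than in cluster 0 was *Ramp2*, a receptor subunit for adrenomedullin, at 5.03 against 18.1. The VEGF receptor *Kdr* was at 3.83, against 4.94 in cluster 2 and 5.11 in cluster 0.

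Most genes of capillary lipid uptake and their transcription factors were higher. Of 24 genes, which include the markers *Fabp4*, *Gpihbp1* and *Cd36*, 20 were higher than in cluster 2 and 1 lower (median log2 4.52). Against cluster 0, 19 were higher and 1 lower (4.41). *Fabp5*, a second fatty acid binding protein, was at 8.71 against 2.27 in cluster 2 and 2.10 in cluster 0. *Lpl*, lipoprotein lipase, was at 1.09 against 0.0848 and 0.0953, and *Mgll*, which cleaves monoacylglycerols, at 2.54 against 0.0910 and 0.116. The transcription factors *Meox2* and *Pparg* were at 0.594 and 0.295, 25.6- and 24.4-fold above cluster 2. The water channel *Aqp1* was at 2.50 against 0.0903 and 0.454, and *Car4*, a carbonic anhydrase of the capillary surface, at 0.278 against 0.0426 and 0.0151. These genes were higher in each library by the rule, and the library with suffix 3 had the highest level of *Lpl* (1.62), *Mgll* (4.21) and *Aqp1* (3.66). *Tcf15*, which works together with *Meox2* in cardiac capillaries, was at 1.34, against 1.16 in cluster 2 and 0.868 in cluster 0, and was not called. *Slc27a3*, a fatty acid transporter, was the gene that was lower, at 0.0440 against 0.110 in both.

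Arterial genes divided by the cluster of comparison. Of 17 arterial genes, 11 were higher than in cluster 2 and none lower, but of 18 compared with cluster 0, 8 were lower and 1 higher (median log2 -1.05). The arterial connexins *Gja5* and *Gja4* were at 0.228 and 1.05 in cluster 1 against 5.09 and 13.8 in cluster 0, and the Notch effector *Hey2* at 0.0178 against 0.643. *Dll4*, a Notch ligand, was at 2.05, against 1.71 in cluster 0 and 0.343 in cluster 2. *Cxcl12* was the arterial gene that was higher than in cluster 0, at 2.14 against 0.269. Of 9 venous genes 3 were higher and 2 lower than in cluster 2, and 5 higher and 2 lower than in cluster 0. Among them, *Nrp2* (3.15 against 0.222), *Nr2f2* (0.534 against 0.122) and *Aplnr* (1.58 against 0.373) were higher than in cluster 0, while *Aplnr* was lower than in cluster 2 (3.84). With scaling by the median ratio over genes, *Nr2f2* was also lower than in cluster 2 (log2 -1.29). The venous genes higher in both comparisons include *Vcam1* and *Selp*, which are counted again among the leukocyte adhesion genes. *Plvap*, which forms the diaphragms of fenestrae and caveolae, was at 2.26 against 7.36 in cluster 2 and 13.1 in cluster 0, and *Vwf* at 0.817 against 5.21 in cluster 0. Of 15 angiogenic genes 7 were higher than in each of the other clusters and none lower, among them *Pgf*, a VEGF family ligand, at 3.33 against 0.0287 and 0.0723, and *Angpt2* at 1.06 against 0.0520 and 0.0397.

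All 11 cytokine genes compared with cluster 2, of 16 listed, were higher (median log2 7.71), as were 9 of 11 against cluster 0 (5.85). The markers *Il1a* and *Csf3* are among these genes. *Il1b* was at 5.44 against 0.0133 and 0.00397, with 97.4% of its UMIs in 40 cells, and *Il6* at 0.388 against 0.00185 and 0.00397. Of 16 chemokine genes, the marker *Cxcl1* among them, 15 were higher than in cluster 2 and 13 higher than in cluster 0, none lower. *Ccl2*, which draws monocytes, was at 15.5, 6.79 and 9.12 in the 3 libraries against 0.00989 to 0.0350 in cluster 2. *Cxcl2*, which draws neutrophils, was at 18.4, 9.17 and 24.4 against 0.0310 to 0.141. Cluster 1 was above cluster 2 in every library for both. *Cxcl16*, a membrane-bound chemokine, was the most evenly spread of those named, found in 46.3% of the cells at 5000 UMIs and at 2.12 against 0.0140 and 0.126. Without the 80 cells with leukocyte genes, *Ccl5* was at 0.738 in place of 7.53 and *Il1b* at 0.118 in place of 5.44, whereas *Cxcl2* was at 15.5 in place of 18.3 and *Ccl2* at 11 in place of 11.6. All 10 cytokine and all 10 chemokine genes that could then be compared were still higher than in cluster 2.

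The NF-κB list had 19 of 22 genes higher than cluster 2 and 17 higher than cluster 0, none lower (median log2 2.88 and 1.99). *Nfkbia*, the inhibitor IκBα that NF-κB induces, was found in 86.6% of the cells and was at 12.4, 9.32 and 13 in the 3 libraries, against 1.01 in cluster 2 and 1.62 in cluster 0. *Traf1* was at 0.709 against 0.00662 and 0.0183, and *Nfkbiz* at 0.719 against 0.0416 and 0.0644. These genes were spread over many more cells than the cytokines were. In the STAT3 list 11 of 12 genes were higher than in each cluster, with *Socs3*, a feedback inhibitor, at 1.41 against 0.127 and 0.118, and *Cebpb* at 4.25 against 0.158 and 0.282, while *Lifr* was lower than in cluster 0 (0.326 against 1.14). Of the 7 acute-phase genes that could be compared, of 19 listed, 6 were higher than in each cluster, the marker *Saa3* among them. *Lcn2* was at 1.79 against 0.0101 and 0.00953. Of 13 leukocyte adhesion genes 8 were higher than in cluster 2 and 6 higher than in cluster 0, with 1 lower in each. *Selp* was at 1.22 against 0.0107 and 0.0119, *Sele* at 0.273 against 0.00214 and 0.00238, *Vcam1* at 1.13 against 0.0186 and 0.0350, and *Icam1* at 2.22 against 0.514 and 0.512. Most cells held none of the first 3 of these genes. At 5000 UMIs, *Selp* was found in 81, *Sele* in 41 and *Vcam1* in 151 of 745 cells, and 40 cells held 86.4% of the *Selp* UMIs. *Cdh5* was found in 93.8% of the cells with *Selp* and 88.1% of those with *Vcam1*, and *Lyz2* in 12.3% and 11.9%.

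Interferon-response and class I genes were higher in both comparisons. All 23 interferon genes were higher than in cluster 2 (median log2 5.95) and than in cluster 0 (4.38), and all 11 antigen presentation genes that could be compared were higher (5.22 and 3.52). *H2-K1* was at 16.5, 15.0 and 17.1 in the 3 libraries, against 0.144 to 0.273 in cluster 2 and 0.392 to 0.513 in cluster 0, and was found in 96.8% of the cells. *B2m*, the light chain of class I molecules, was at 16.6 against 1.21 and 2.23, and the immunoproteasome subunit *Psmb8* at 2.38 against 0.0313 and 0.0397. The class II invariant chain *Cd74* was at 0.417, with 90.0% of its UMIs in 40 cells. *Isg15* was at 3.72 against 0.0316 and 0.122 and *Irf7* at 1.44 against 0.0102 and 0.0151. The class I gene *H2-K1* was as high in the 57 cells poor in endothelial genes (16.5) as in the other cells (16.4). The whole lists were less even. In those 57 cells the interferon list was at 75.4 against 27.4 in the others, and the antigen presentation list at 84.3 against 58.9. In the 80 cells with leukocyte genes the lists were at 76.8 and 90.6, against 24.0 and 56.2 without them. Of the interferon UMIs, 47.2% lay in 40 cells. All 23 interferon and 11 antigen presentation genes remained higher than both clusters without the 80 cells with leukocyte genes.

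Most immediate-early genes and genes of prostanoid and oxidant metabolism were also higher. Of 18 immediate-early genes 16 were higher than in each cluster and none lower, with *Fos* at 5.53 against 0.403 and 0.567, *Egr1* at 3.1 against 0.129 and 0.136 and *Jun* at 9.96 against 2.09 and 2.65. Such genes are known to respond to tissue dissociation, and the part of the sort in these values was not tested. Of 15 prostanoid and oxidant genes 11 were higher and none lower than in cluster 2, and 12 higher and 1 lower than in cluster 0, with 27.7% of their UMIs in the 57 cells poor in endothelial genes. *Hmox1*, haem oxygenase, was at 13.4, 6.85 and 10.4 against 0.505 in cluster 2 and 0.443 in cluster 0, and *Gclm* and *Srxn1*, further antioxidant genes, at 3.91 and 1.10, 6.70- and 25.8-fold above cluster 2. *Cdkn1a*, the cell-cycle inhibitor p21, was at 6.98 against 0.330 and 0.217 and *Gdf15*, a stress-induced cytokine, at 6.90 against 0.0698 and 0.100. *Inhbb*, the βB subunit of activin and inhibin, was among the 25 genes with the largest ratios against cluster 0 and was evenly spread, at 3.58, 4.17 and 3.20 in the 3 libraries against 0.0238 in cluster 2 and 0.0183 in cluster 0, with 23.7% of its UMIs in 40 cells.

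**Figure D5:**
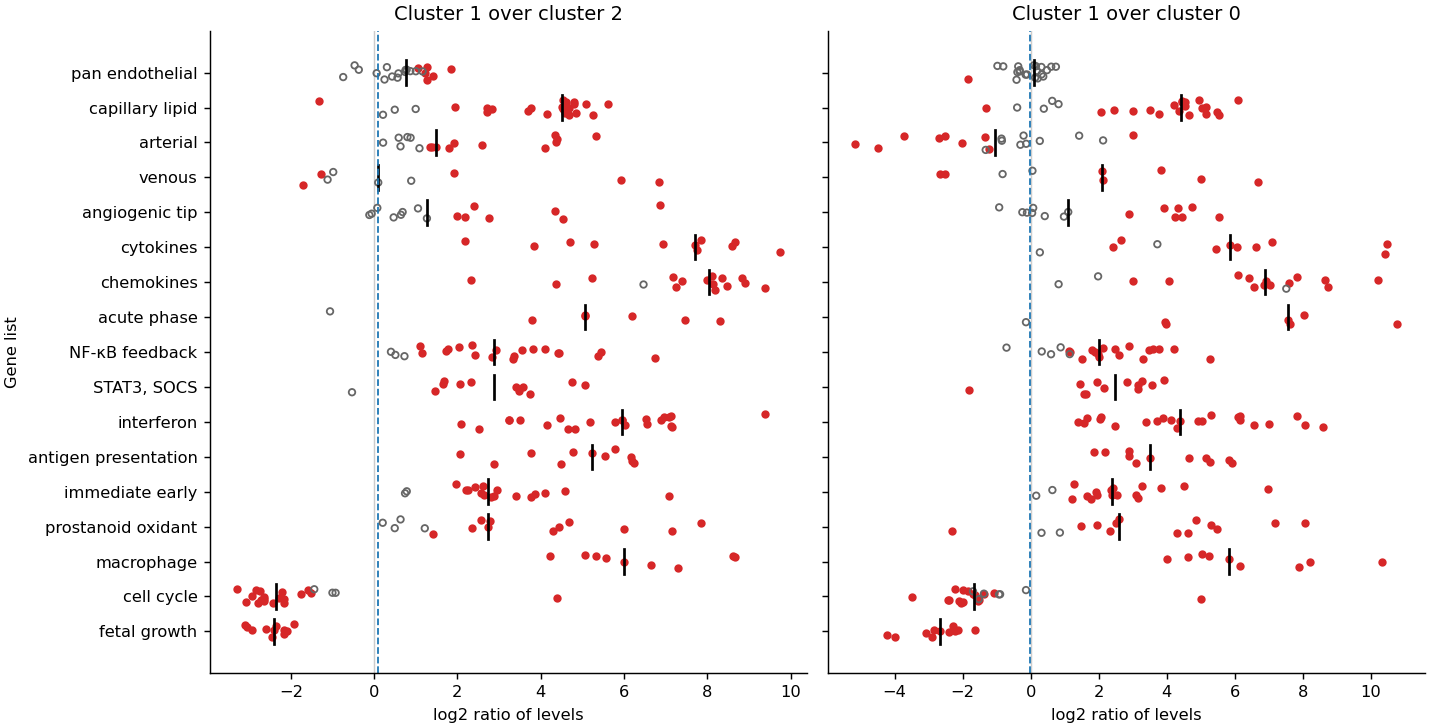
log2 ratio of the level in cluster 1 to that in cluster 2 (left) and cluster 0 (right) for the members of 17 gene lists. Red points were past 2-fold in the sum and in each library, open points were not, black bars are list medians and the dashed line is the median over all genes compared. Cytokine, chemokine, interferon and class I genes lie to the right and cell-cycle and fetal growth genes to the left, while a gene with no UMI in 1 cluster is drawn at its bound of 3 counts.

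Cell-cycle genes were lower. Of 22 genes 18 were lower than in cluster 2 (median log2 -2.36) and 15 lower than in cluster 0 (-1.67), and the 1 that was higher was *Cdkn1a*. *Mki67* was at 0.303, 0.932 and 0.605 in the 3 libraries, against 1.85 to 3.23 in cluster 2 and 1.24 to 2.14 in cluster 0, without overlap. *Top2a* was at 0.585 against 3.67 and 2.43, and *Ube2c*, which acts in mitotic exit, at 0.657 against 5.50 and 3.06. Of the *Mki67* UMIs in cluster 1, 81.2% were in 40 cells.

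Fetal growth genes were the most uniformly lower group. All 11 genes that could be compared, of 12, were lower than in cluster 2 (median log2 -2.41) and lower than in cluster 0 (-2.67). *Igf2*, the imprinted fetal growth factor, was at 1.30, 3.90 and 2.79, against 7.82 to 11.9 in cluster 2 and 28.6 to 43.7 in cluster 0. *H19*, the imprinted RNA beside it, was at 1.76 against 7.92 and 33.0. *Mest* was at 3.99, 5.58 and 3.85 against 20.8 to 23.1 and 12.9 to 14.3, and did not overlap either. *Hmga2*, *Igf2bp1* and *Lin28b*, which are switched off in most adult tissues, were at 0.571, 0.290 and 0.0285, against 3.43, 2.22 and 0.238 in cluster 2. A few cells held much of what remained, with 63.1% of the *Igf2* UMIs and 82.1% of those of *Meg3* in 40 cells. The same 11 genes were lower than both clusters without the 57 cells poor in endothelial genes and without the 80 cells with leukocyte genes.

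Among the 25 genes with the largest ratios against cluster 2, the lower ones were led by *Gap43* (0.158 against 1.93), *Hapln1*, a hyaluronan link protein (0.415 against 3.88), and *Meg3* (0.285 against 2.45). Against cluster 0 they were led by *Sost* (0.0250 against 1.28) and *Nkx2-3* (0.0345 against 1.63), and included *Gja5*, *Npr3*, a natriuretic peptide receptor of the endocardium (0.181 against 2.65), and *Fn1*, fibronectin (1.23 against 10.3). The higher ones were led by *Il1a* and *Cxcl10* against cluster 2 and by *Saa3* and *Il1rn* against cluster 0, where *Il1rn* rests on 1 UMI in cluster 0 (log2 10.6, interval 8.07 to 15.9), and *Cxcl10* and *Il1rn* had 96.9% and 96.7% of their UMIs in 40 cells. Relative to all other cells of the series, *Il1a*, *Saa3* and *Csf3* came first and *H2-Q6* (47.1% of cells, 2.21 against 0.0169 in cluster 2) was the highest-ranked gene found in more than 40% of cells.

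The remaining gene lists moved less uniformly. Of 16 genes for receptors of cytokines and microbial products, 15 were higher than in cluster 2 and 10 higher than in cluster 0, with *Tnfrsf1a*, a TNF receptor, found in 55.4% of the cells and *Cd14*, a co-receptor for lipopolysaccharide, at 3.38 with 94.6% of its UMIs in 40 cells. Of 13 coagulation genes 9 were higher than in cluster 2, and 6 were higher and 2 lower than in cluster 0. *Plat*, tissue plasminogen activator, was at 3.13, 3.40 and 2.54 in the 3 libraries against 0.0919 in cluster 2 and 0.348 in cluster 0. Of 14 matrix genes 9 were higher and 1 lower than in cluster 2, and 8 higher and 3 lower than in cluster 0, with *Adamts1*, a matrix protease, at 3.17 against 0.329 and 0.366, and *Mmp2* was lower than in both clusters. Of 16 heat-shock and unfolded-protein genes 6 were higher and 2 lower than in cluster 2, and 7 were higher and none lower than in cluster 0, the genes lower than in cluster 2 being the mitochondrial chaperones *Hspd1* (2.77 against 9.09) and *Hspe1*, and *Atf4* was higher (3.62 against 1.11). Of 20 glycolysis and hypoxia genes 6 were higher and 1 lower than in cluster 2, and 5 higher and 1 lower than in cluster 0. The lower one was the glucose transporter *Slc2a1*, at 1.39 against 3.22 in cluster 2 and 4.14 in cluster 0, and *Ndrg1* was higher, at 1.74 against 0.0835 and 0.0500. None of the 13 mitochondrially encoded genes was called in either comparison. Of 17 apoptosis genes 8 were higher than in cluster 2 and 6 higher than in cluster 0, none lower, and of 15 genes of endothelial-to-mesenchymal transition 4 were higher and 1 lower than in cluster 2, and of 16 compared with cluster 0, 5 were higher and 4 lower (median log2 -0.32).

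Of 9 genes of haematopoietic emergence 5 were higher and 1 lower than in cluster 2, and of 10 compared with cluster 0, 2 were higher and 5 lower. Without the 80 cells with leukocyte genes, 2 of 7 were higher than in cluster 2. *Kit*, the SCF receptor, was at 1.11 against 0.216 and 0.186, and *Spi1*, which encodes PU.1, at 0.370 against 0.0164 and 0.129. *Runx1*, the transcription factor of the endothelial-to-haematopoietic transition, was at 0.156, above cluster 2 (0.0188) and below cluster 0 (0.321), and was found in 5.50% of the cells, with 74.0% of its UMIs in 40 cells. *Gfi1* was at 0.00832 against 0.158 in cluster 0, and *Itga2b*, which encodes CD41, at 0.0903 against 0.0543 and 0.0667. *Lmo2* was lower than in both clusters, at 1.35 against 3.48 and 3.25. Lists of other cell types had low sums: lymphocyte and neutrophil lists summed to 0.166 and 0.675 UMIs per 10,000. The fibroblast, mural and cardiomyocyte lists summed to 2.95, 1.92 and 0.952, against 0.202, 0.376 and 0.117 in cluster 2 and 0.563, 1.84 and 0.168 in cluster 0. Of their UMIs in cluster 1, 86.3%, 70.3% and 41.2% lay in 40 cells. Few members of the lists of other cell types could be compared with cluster 2, some of them only through their level in cluster 1. Of these, 3 of 3 fibroblast, 4 of 5 mural, 3 of 4 cardiomyocyte and 2 of 2 megakaryocyte genes were past 2-fold higher. Against cluster 0, 2 of 4 fibroblast, 3 of 6 mural, 4 of 4 cardiomyocyte and 2 of 2 megakaryocyte genes were higher, and 1 mural gene was lower. The part of such cells or their free RNA in the other values was not tested. *Pdgfra* was at 0.0131, while *Dcn*, a fibroblast proteoglycan, was at 2.35 with 96.8% of its UMIs in 40 cells.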

How the data were processed

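Per the labels and the study's methods, 10x Genomics 3′ v3 libraries of 3 pools were processed by the authors with Cell Ranger 3.1.0 on mm10, and cells were clustered with Leiden. The submitters' processing notes also name Seurat 3.1.5. The authors deposited raw UMI counts per gene and cell, natural log values (which equal ln(1 + UMIs per 10,000)) and a table of UMAP coordinates with other cell annotation, the cluster number. The counts were used for every value, the natural log values only for a check. The table held 27998 gene IDs, of which 27645 matched a name in GENCODE M21 (4 names were summed over IDs), and 252339042 UMIs. Cells were taken from the deposited cluster number and summed by cluster and barcode suffix, and levels are UMIs per 10,000. Since nothing ties a suffix to a pool or time, no test was run. Ratios have conditional binomial, shares exact Clopper-Pearson and levels exact Poisson 95% intervals (scipy 1.17.1), and a count of 0 was replaced by 3 counts as a bound. Genes with at least 0.1 UMI per 10,000 in either cluster were compared and called past 2-fold in the sum and in each library. Shares of cells used 5000 UMIs per cell, drawn without replacement. The ratios were checked on simulated counts. Cells are stated to be singlets. Scrublet in scanpy 1.11.5 marked 18 cells (0.188%), too few for the caller to have worked, 2 of them in cluster 1. Beside the members of 40 fixed gene lists (the 7 markers being 1 of them), genes were named from the 25 largest ratios in each direction against cluster 2, cluster 0 and all other cells (at least 1 UMI per 10,000, same direction in every library). The cluster, its markers and the lists were chosen with earlier results of these data known. *Malat1*, *Neat1*, *Xist*, the Y-linked genes and *Gdf15* were added after values were seen. Promoters came from RefSeq. Some items are not reported here.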

Additional observations from a re-analysis of the deposited data

How the results depend on the processing

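The numbers of genes past 2-fold moved by over 1.5 times only with the minimum level. At 1 UMI per 10,000, 408 genes were higher and 195 lower than in cluster 2, and 303 higher and 166 lower than in cluster 0, since fewer genes were compared. At 0.01 UMI per 10,000, 2337 genes were higher than in cluster 2. Scaling by the median ratio over genes gave 1329 higher and 958 lower than in cluster 2, against 1544 and 731, so the share of higher calls among all calls moved from 67.9% to 58.1%. Leaving out 1 library gave 1600 to 1680 genes higher and 788 to 825 lower than in cluster 2, and 1152 to 1176 higher and 770 to 891 lower than in cluster 0. Chosen after the data were seen, leaving out the 57 cells poor in endothelial genes gave 1491 higher and 690 lower than in cluster 2, of which 1413 and 677 were shared with all cells, and leaving out the 80 cells with leukocyte genes gave 1479 and 680, of which 1350 and 657 were shared. All 7 markers kept a higher share of cells than in clusters 0 and 2 at 3000 UMIs per cell, with at least 2 UMIs, without thinning, without each library and without the cells poor in endothelial genes. Of 40 lists, 24 had a median log2 ratio above 1 in both comparisons, 22 to 24 under the alternatives. The 7 markers are 1 of these lists and are also members of others, and a median covers only the genes that could be compared. In lists of other cell types these were few, such as 1 neutrophil and 2 megakaryocyte genes, so the number of lists is no measure of how broad the difference is. The correlation within cluster 1 was -0.43 at 3000 UMIs, -0.50 to -0.41 without 1 library and -0.40 without the cells poor in endothelial genes. No paired analysis was possible because there is 1 group of samples. At the median depth of cluster 1 a gene at under 1 UMI per 10,000 can be missed in cells that hold it, and background UMIs add cells that do not, so shares of cells are not bounds on expressing cells.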
